A study of Bos taurus with 4 samples.

Results

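RAB small GTPases were examined in the semitendinosus, a hind-leg muscle, of Limousin (LIM) bulls, a beef breed, and Holstein-Friesian (HF) bulls, a dairy breed. All genes whose symbol starts with RAB and a digit were taken. The rule uses the symbols alone, but it was chosen with earlier results of these data known. Each gene was represented by its brightest kept probe. Of 69 such genes in the gene table, 42 had a matched probe, among 7788 genes with one, and 36 of these were kept for testing, among 6376 genes. The 36 genes were 30 GTPases and 6 genes that carry a RAB name but code for regulators or partners. All bulls were 15 months old, and 4 bulls of each breed were measured with no pooling. Each of 4 arrays on 1 slide paired a LIM bull in the red dye Cy5 with a HF bull in the green dye Cy3. The dyes were never exchanged, so a breed difference and a dye difference cannot be told apart, and every ratio puts the LIM-labelled channel over the HF-labelled one.

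RAB proteins are molecular switches that, when loaded with GTP, sit on the membrane of 1 compartment and recruit the proteins that move, tether and fuse its vesicles. Exchange factors load them with GTP, activating proteins trigger its hydrolysis, and other proteins take the inactive form off the membrane. In muscle, RAB proteins also steer the vesicles that carry the insulin-responsive glucose transporter GLUT4 to the cell surface. The roles given for single genes are those known from human and rodent cells.

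Of 42990 spots, 32513 to 33527 stood clearly over background in the LIM channel, as did 27102 to 28769 in the HF channel. Across probes, which are no independent replicates, pairs of arrays had a Pearson's r of 0.40 to 0.60 between their log2 ratios. The number of arrays limits the precision. All 11 skeletal muscle markers with a matched probe, of 15 listed (TTN, TNNT3, TNNI2 and ACTN2 were not matched), were above background on every array in both channels. Their median log2 ratio was 0.08, with ratios from -1.06 (MYH7) to 1.02 (MB). MB and TNNC2 (0.68) passed the test as higher in the LIM channel, and 0 passed as lower. Markers of other cells were measured too, and 5 of 9 listed for macrophages and antigen-presenting cells had a median log2 ratio of -0.62, with none past the test. Their summed signal was 2614 to 4096 in the LIM channels and 3908 to 11424 in the HF channels. For neutrophils and mast cells, 5 of 7 listed markers were kept, with a median of -0.55 and 1 lower. Summed over the 6 with a matched probe, the signal was 1188 to 1499 in the LIM channels and 1477 to 2271 in the HF channels. The other lists had medians of -0.31 (nerve), -0.21 (endothelial), -0.19 (smooth muscle), -0.12 (erythrocyte), -0.08 (lymphocyte), 0.01 (fibroblast) and 0.26 (adipocyte). The smooth muscle, fibroblast and adipocyte lists each had 1 gene lower (LMOD1, OSR1 and CFD), and no gene of these lists was higher. Fibroblast ratios ran from -1.28 (OSR1) to 1.29 (COL1A2), with 4 of 7 above 0. Adipocyte ratios ran from -1.17 (CFD) to 0.64 (FABP4), with 4 of 5 above 0. In whole muscle, differences in the number of cells of a type, in RNA per cell and between the dyes cannot be told apart.

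None of the 36 RAB genes passed the test in either direction. By limma's test at an adjusted p under 0.05 (Benjamini-Hochberg, over the 15856 kept probes), 0 were higher and 0 lower in the channel labelled LIM, where 2.78% of all genes tested were higher and 3.15% lower. At an unadjusted p under 0.05, 5 RAB genes were on the higher side and 0 on the lower side, against 14.3% and 14.6% of all genes. These 5 were RAB21, RAB4B, RAB2A, RAB12 and RAB3GAP1, and none of the 5 survived the adjustment. The ratio lay above 0 on all 4 arrays for 6 RAB genes and below 0 on all 4 for 3, where 18.7% and 17.4% of all genes did so. The 4 LIM channels all lay above the 4 HF channels for 3 RAB genes (RAB21, RAB2A and RAB4B), where 8.56% of all genes did so. They all lay below for 1, RAB2B, against 8.5% of all genes.

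The ratios of the RAB genes split evenly around 0, with 18 above and 18 below. Their median log2 ratio was 0.0024, against 0.0029 for all genes, and the medians on arrays 1 to 4 were 0.05, -0.02, 0.03 and -0.02. Ratios ran between -0.23 (RAB3A) and 0.65 (RAB12), and 32 of 36 (88.9%) lay within 0.25 of 0, against 67.5% of all genes. The interquartile range was 0.18 for the RAB genes and 0.31 for all genes, while the median SD between arrays was 0.20 for the RAB genes and 0.21 for all genes. The 95% interval included 0 for 31 of the 36 genes (86.1%), against 71.1% of all genes, and lay wholly within a 1.5-fold change for 32 (88.9%), against 70.5% of all genes. These shares are descriptions of the set and were not tested.

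**Figure D1:**
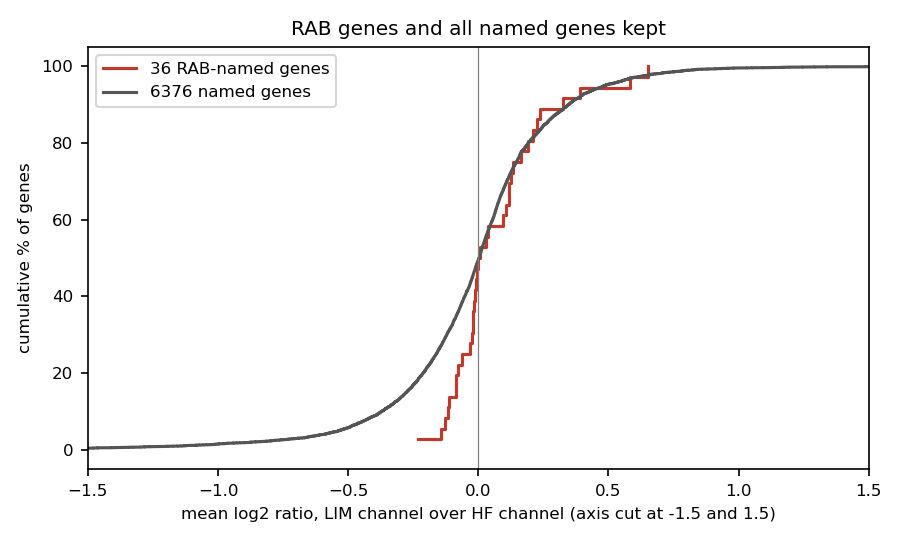
The horizontal axis gives the mean log2 ratio of the LIM over the HF channel and the vertical axis the cumulative percentage of genes, for the 36 RAB-named genes (red) and all 6376 named genes kept (grey). The red curve starts at -0.23, while the grey curve has a tail on both sides of the axis.

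The background offset of 50 shrinks the ratios of dim probes, and 41.7% of the RAB genes had a mean log2 intensity under 8, against 39.7% of all genes. Of the 15 RAB genes that dim, all 15 lay within 0.25 of 0, against 81.5% of all genes under 8. At or over 8, 17 of 21 RAB genes (81.0%) did so, against 58.3% of all genes. Both channels were above background on all 4 arrays for 32 of the 36 genes. The other 4 were above it in the LIM channel on all arrays, but in the HF channel RAB6B, RAB7B and RAB27A on 3 arrays and RAB2B on 1.

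The dye labels fix the direction of every ratio, and it runs opposite to the one that the study's text describes for its named genes. Of those with a kept probe, 7 described there as higher all lay below 0 and 6 described as lower all lay above 0. For some of these genes, on both sides, the study also reports the direction of its text by quantitative PCR, and for the MSTN protein by Western blot. Those assays were made apart from the arrays and are not among the data used here. Whether the dye labels are exchanged in the records was not tested, and if they were, every sign, rank and side given for the LIM channel would turn. Among early endosome members, RAB21, which moves integrins through early endosomes, had the smallest p of all RAB genes. Its normalised log2 signal was 8.77, 8.82, 9.29 and 8.85 in the LIM channels of arrays 1 to 4, against 8.27, 8.48, 8.21 and 8.44 in the HF channels. Every LIM channel lay above every HF channel. The log2 ratio averaged 0.58 ± 0.14 (moderated SE, n = 4), with a limma adjusted p of 0.074. The ratio on array 3, 1.08, stood above the other 3, which lay between 0.34 and 0.51, and without array 3 the mean was 0.42.

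RAB5C, 1 of the RAB5 isoforms that drive the fusion of early endosomes, gave 10.73, 10.21, 10.04 and 10.22 in the LIM channels, against 9.75, 9.83, 10.19 and 10.12 in the HF channels. The groups overlapped, and the ratios of 0.97, 0.38, -0.15 and 0.10 averaged 0.33 ± 0.19 (limma adjusted p = 0.337). The isoform RAB5A had ratios of 0.59, -0.02, 0.02 and -0.09, with a mean of 0.13 ± 0.13. Array 1 thus held the highest ratio of both isoforms, and without it RAB5C averaged 0.11 and RAB5A -0.03. RAB31, which carries cargo between the trans-Golgi network and endosomes, had ratios of 0.69, 0.07, -0.56 and -0.17 and a mean of 0.01 ± 0.21. Its HF channels differed by more than a log2 unit (10.52, 10.94, 11.57 and 11.39), while its LIM channels lay between 11.01 and 11.22. The median ratios of the macrophage and antigen-presenting cell markers on the same arrays were -0.15, -0.01, -1.28 and -0.93, and their part in the RAB31 values was not tested. RAB5B, RAB20 and RAB22A had no matched probe, so the group's median of 0.23 stands on 4 genes. By array that median was 0.64, 0.20, -0.06 and 0.01.

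**Figure D2:**
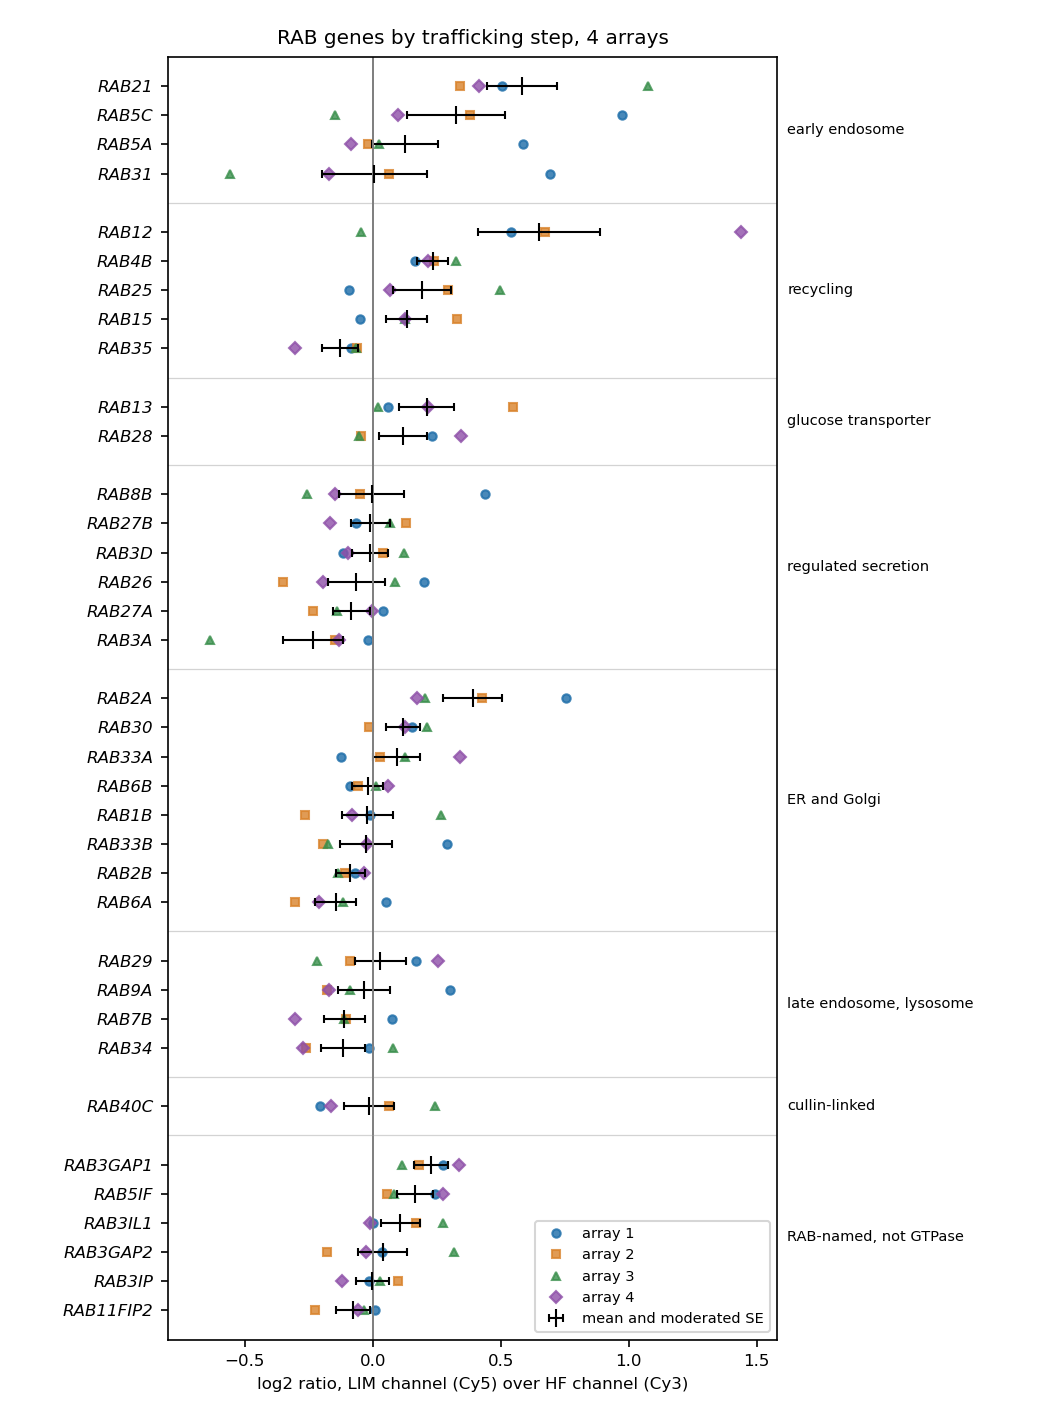
Each row is a RAB gene, grouped by trafficking step, and the horizontal axis is the log2 ratio of the LIM (Cy5) over the HF (Cy3) channel; points show the 4 arrays, and each bar shows a mean and its moderated SE. RAB21 and RAB2A had all 4 arrays to the right of 0, and RAB12 spanned -0.05 to 1.44.

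The recycling group holds GTPases linked to recycling endosomes or to the return of cargo from endosomes to the cell surface. Its member RAB12 had the highest mean ratio of the RAB genes with all 4 arrays, but RAB21 was the highest without array 2 (0.67) and without array 4 (0.64). RAB12 directs transferrin receptor out of recycling endosomes for breakdown. It gave 9.51, 9.22, 9.60 and 9.95 in the LIM channels, against 8.97, 8.54, 9.65 and 8.51 in the HF channels, so the groups overlapped. Its ratios of 0.54, 0.67, -0.05 and 1.44 averaged 0.65 ± 0.24 (limma adjusted p = 0.161), and without array 4 the mean was 0.39. The SD between arrays, 0.61, was larger than that of 95.3% of genes.

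RAB4B, a GTPase of fast recycling from early endosomes, showed the opposite picture, a small difference with little spread. The LIM channels gave 8.31, 8.47, 8.46 and 8.49, against 8.14, 8.23, 8.14 and 8.27 in the HF channels. Here too every LIM channel lay above every HF channel, and the ratio averaged 0.24 ± 0.06 (limma adjusted p = 0.086), a fold of 1.18. RAB25, a relative of RAB11 in epithelial recycling endosomes, averaged 0.19 and RAB15, described in neuronal recycling, 0.13. RAB35, which acts in fast recycling and cell division, had ratios of -0.08, -0.06, -0.06 and -0.30, with a mean of -0.13 ± 0.07, or -0.07 without array 4. Of 5 measured members 4 had a mean above 0, and the group's median was 0.19. RAB4A, RAB11A, RAB11B and RAB17 had no matched probe.

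**Figure D3:**
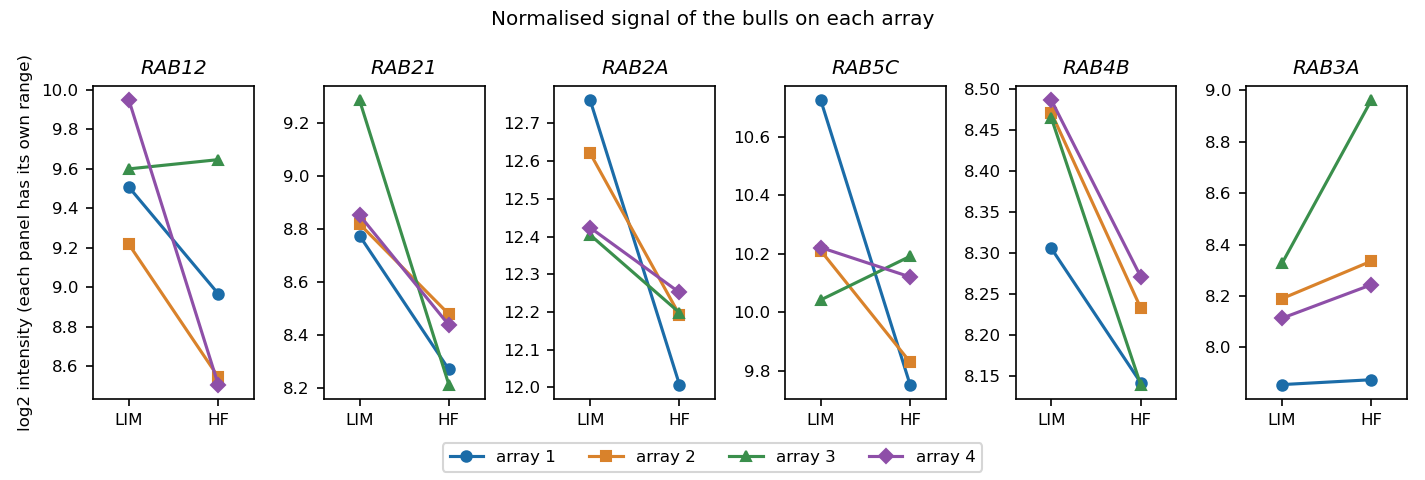
Normalised log2 intensity (vertical axis, 1 range per panel) of the LIM and the HF channel of each array, joined by a line, for RAB12, RAB21, RAB2A, RAB5C, RAB4B and RAB3A. The 4 LIM points lie above the 4 HF points for RAB21, RAB2A and RAB4B only.

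The glucose transporter group, GTPases linked to GLUT4 vesicles, was measured through RAB13 and RAB28 alone, since RAB8A, RAB10 and RAB14 had no matched probe. RAB13, a target of the GLUT4 regulator TBC1D4 that also acts at cell junctions, had ratios of 0.06, 0.55, 0.02 and 0.21, with a mean of 0.21 ± 0.11. RAB28, also known from the cilium of photoreceptors, had 0.23, -0.05, -0.05 and 0.34, with a mean of 0.12 ± 0.09. Neither passed the test (limma adjusted p = 0.273 for RAB13 and 0.466 for RAB28). RAB13 lay above 0 on all 4 arrays, with the highest value on array 2, and RAB28 on arrays 1 and 4. Without array 2 RAB13 averaged 0.098, and without array 4 RAB28 averaged 0.04.

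By their brightest probes, all 6 measured GTPases of regulated secretion had mean ratios below 0, but with a group median of -0.04 and none past the test. After median centring in place of loess, RAB8B, RAB3A and RAB3D lay above 0. RAB3A, the GTPase of synaptic vesicles, had the lowest mean ratio of the RAB genes after loess with all 4 arrays. It gave 7.86, 8.19, 8.33 and 8.11 in the LIM channels, against 7.87, 8.34, 8.96 and 8.24 in the HF channels. The groups overlapped, and the ratios of -0.02, -0.15, -0.63 and -0.13 averaged -0.23 ± 0.12 (limma adjusted p = 0.274), with array 3 the lowest. Without array 3 the mean was -0.10, and RAB34 (-0.18) was the lowest RAB gene. With the scanner's processed signals RAB27A (-0.53) was the lowest, and after median centring RAB2B (-0.36). A second, dimmer RAB3A probe had a ratio of -0.08.

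RAB8B, which carries vesicles outward from the trans-Golgi network, had ratios of 0.44, -0.05, -0.25 and -0.15 and a mean of -0.0045 ± 0.13. A second, dimmer RAB8B probe had a ratio of 0.01. The remaining members averaged -0.08 for RAB27A and -0.01 for RAB27B, which dock secretory granules, -0.06 for RAB26 and -0.01 for RAB3D, 2 further granule GTPases. RAB3B and RAB37 were not above background on enough arrays to be kept, and RAB3C had no matched probe.

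Of the 8 GTPases of the endoplasmic reticulum (ER) and Golgi, RAB2A alone had a 95% interval clear of 0. RAB2A, which works between the ER and the Golgi, gave 12.76, 12.62, 12.40 and 12.42 in the LIM channels, against 12.01, 12.19, 12.20 and 12.25 in the HF channels. Every LIM channel lay above every HF channel, and the ratios of 0.75, 0.43, 0.21 and 0.17 averaged 0.39 ± 0.12 (limma adjusted p = 0.109). Its paralog RAB2B had ratios of -0.07, -0.11, -0.14 and -0.03 (mean -0.09 ± 0.06), with LIM channels between 6.33 and 6.38 and HF channels between 6.40 and 6.48. Although the RAB2B channels did not overlap, its HF channel was above background on 1 array only.

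RAB6A, a GTPase of retrograde Golgi transport, had ratios of 0.05, -0.30, -0.12 and -0.21, with a mean of -0.15 ± 0.08. RAB30, at the Golgi, averaged 0.12 and RAB33A 0.09. RAB1B, which acts between the ER and the Golgi, RAB6B and RAB33B, which acts at the Golgi and in autophagy, all averaged -0.02. A second, dimmer RAB33B probe had a ratio of 0.08. The group's median was -0.02, with 3 means above 0 and 5 below. RAB19 was not above background, and RAB1A, RAB18, RAB36 and RAB43 had no matched probe.

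Both genes of 6 paralog pairs were measured, and the difference between their ratios was taken on each array. The RAB2A ratio exceeded that of RAB2B on 4 of 4 arrays, by 0.82, 0.54, 0.34 and 0.20 and by 0.48 on average (SD 0.27). The exact two-sided sign-flip permutation test gave p = 0.125, the smallest p that 4 arrays allow, and 0.562 after Benjamini-Hochberg adjustment over the 6 pairs. In the other 5 pairs the difference changed sign between arrays and averaged -0.22 for RAB3A minus RAB3D, -0.20 for RAB5A minus RAB5C, -0.13 for RAB6A minus RAB6B, -0.08 for RAB27A minus RAB27B and 0.12 for RAB33A minus RAB33B. RAB2B was near background, where ratios shrink, and the part of this in the difference was not tested.

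Late endosome and lysosome members lay close to 0, with a median of -0.07 over 4 genes. RAB29, which recruits the kinase LRRK2 to the trans-Golgi network and lysosomes, was the highest, with 0.17, -0.09, -0.22 and 0.25 and a mean of 0.03 ± 0.10. RAB34, which positions lysosomes and works in cilium formation, was the lowest, with -0.01, -0.26, 0.08 and -0.27 and a mean of -0.12 ± 0.09. RAB7B, which returns cargo from late endosomes to the Golgi, had 0.07, -0.10, -0.11 and -0.30, with a mean of -0.11 ± 0.08. RAB9A, which works on the same route, averaged -0.03 ± 0.10. Each of these 4 genes had arrays on both sides of 0. RAB9B and RAB39B were not kept, and RAB7A, RAB24, RAB32, RAB38, RAB39A and RAB42 had no matched probe.

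RAB40C, which forms part of a cullin ubiquitin ligase, had ratios of -0.21, 0.06, 0.25 and -0.16 and a mean of -0.01 ± 0.10. RAB40B was not above background, and RAB23 and RAB44 had no matched probe. Among the 6 RAB-named genes that are not GTPases, RAB3GAP1 was the highest. It codes for the catalytic subunit of the complex that switches RAB3 off and, in another role, activates RAB18. RAB3GAP1 gave 10.61, 10.72, 10.56 and 10.46 in the LIM channels, against 10.34, 10.54, 10.44 and 10.12 in the HF channels. The groups overlapped, but within each array the LIM channel was the higher one, and the ratio averaged 0.23 ± 0.07 (limma adjusted p = 0.107). RAB3GAP2, the other subunit, averaged 0.04.

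RAB5IF, a RAB5-interacting membrane protein, averaged 0.17 ± 0.07 and lay above 0 on all 4 arrays. The exchange factors RAB3IL1 and RAB3IP averaged 0.11 and -0.0019. RAB11FIP2, an effector of RAB11 on recycling endosomes, was the lowest of the 6, with 0.01, -0.23, -0.03 and -0.06 and a mean of -0.08 ± 0.07. RAB11FIP1, RAB11FIP3, RAB11FIP4 and RAB11FIP5 had no matched probe.

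The proteins that act on RABs were measured in 5 lists, and 2 genes passed the test, both higher in the channel labelled LIM. The 5 lists were chosen with earlier results of these data known. Shares and medians given for them are descriptions and were not tested. SYTL4 (granuphilin), a RAB27 effector that docks secretory granules, gave 12.33, 12.59, 12.46 and 12.45 in the LIM channels, against 11.81, 11.86, 11.79 and 11.49 in the HF channels. The ratio averaged 0.72 ± 0.09 (limma adjusted p = 0.026), and the groups did not overlap. It was the 1 gene called among 24 measured effectors of 52 listed, where 2.78% of all genes were higher. Of the 24, 19 had a mean above 0, against 50.5% of all genes, and their median was 0.12, against 0.0029 for all genes. TBC1D1, the muscle GTPase-activating protein that acts on the RABs of GLUT4 vesicles, gave 8.83, 9.15, 9.31 and 8.97 in the LIM channels, against 8.52, 8.16, 8.51 and 8.24 in the HF channels. Again the groups did not overlap, and the ratio averaged 0.71 ± 0.12 (limma adjusted p = 0.044). It was the 1 gene called among 15 measured activating proteins of 38 listed, again beside 2.78% of all genes. Leaving out any 1 of arrays 1 to 4 ended both calls, with limma adjusted p of 0.061 to 0.096 for SYTL4 and 0.056 to 0.149 for TBC1D1. Over all kept probes, the same step took the calls from 470 higher and 398 lower to 0 to 15 higher and 0 to 36 lower.

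No gene passed in the other 3 lists. Of 15 measured exchange factors of 45 listed, the smallest p were those of TRAPPC6B, a subunit of the TRAPP complex that activates RAB1, and CCZ1, which activates RAB7 together with MON1. TRAPPC6B had ratios of -0.30, -0.08, -0.71 and -0.78 (mean -0.47 ± 0.14, limma adjusted p = 0.107), below 0 on every array. CCZ1 had 0.87, 0.27, 0.22 and 0.34 (mean 0.43 ± 0.13, limma adjusted p = 0.112), above 0 on every array, and averaged 0.28 without array 1.

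Of 6 measured genes of 9 for prenylation and membrane extraction, RABAC1, a receptor for prenylated RABs, had ratios of -0.42, -0.34, -0.12 and -0.03 and averaged -0.22 ± 0.09 (limma adjusted p = 0.183). Of 10 measured genes of 25 in the GLUT4 fusion machinery, 5 had an unadjusted p under 0.05, each on the higher side, where 14.3% of all genes were. The smallest were those of the SNARE proteins STX4, with 0.15, 0.45, 0.41 and 0.35 (mean 0.34 ± 0.07, limma adjusted p = 0.064), and SNAP23, with 0.20, 0.36, 0.14 and 0.38 (mean 0.27 ± 0.07, limma adjusted p = 0.087). SLC2A4, the gene of GLUT4 itself, was named after its values were seen and averaged -0.05 ± 0.16, with ratios of 0.36, -0.38, -0.40 and 0.21.

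**Figure D4:**
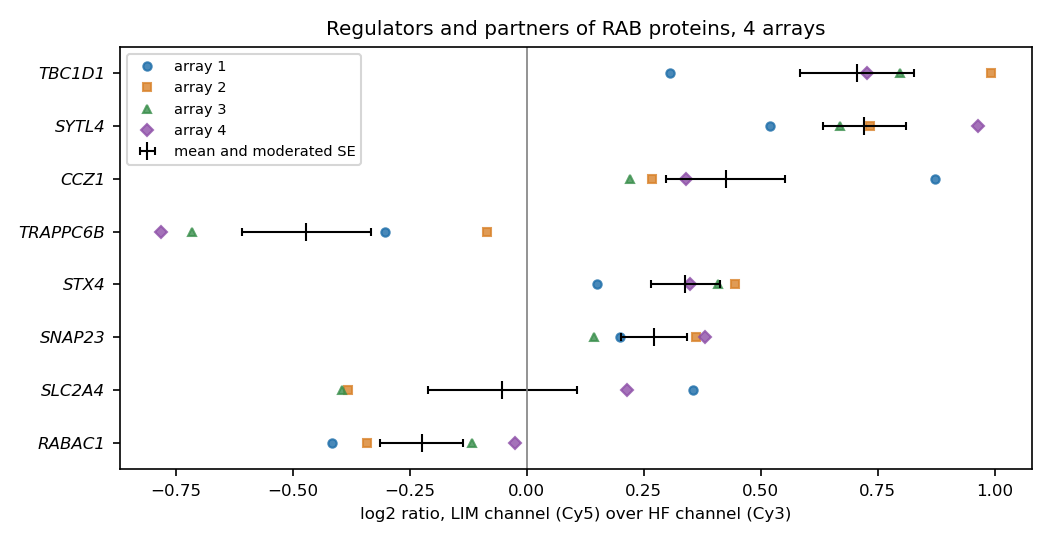
Log2 ratios of the LIM (Cy5) over the HF (Cy3) channel (horizontal axis) for RAB regulators and partners, with a point for each of the 4 arrays and a bar for the mean and its moderated SE. SYTL4 and TBC1D1 lie to the right of 0 on every array, TRAPPC6B and RABAC1 to the left; after median centring the means of both were above 0.

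Replacing the loess step, which takes out any trend of the ratio with brightness, changed the count of RAB genes called most among the alternatives. With each array centred on its median instead, 15 RAB genes (41.7%) were higher and 0 lower, where 25.5% of all genes were higher and 1.71% lower. The median log2 ratio was then 0.45 for the RAB genes and 0.35 for all genes. The 15 were RAB12, RAB21, RAB2A, RAB4B, RAB5A, RAB5C, RAB31, RAB13, RAB28, RAB30, RAB33B, RAB8B, RAB9A, RAB3GAP1 and RAB5IF. All 15 were among the 21 RAB genes with a mean log2 intensity of 8 or more (71.4%, against 38.7% of all genes that bright), and 0 of the 15 dimmer RAB genes were called (5.45% of all genes that dim).

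**Figure D5:**
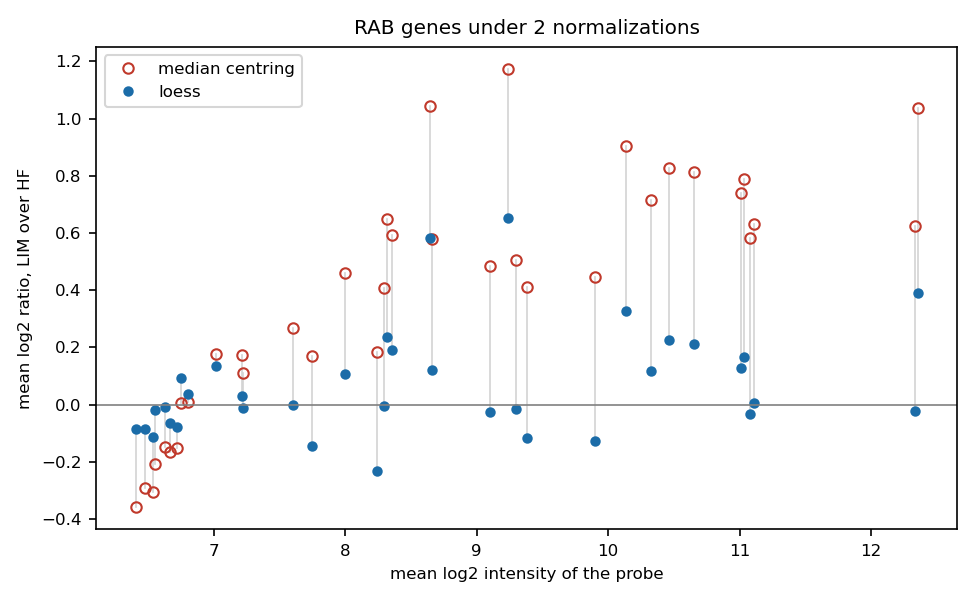
Mean log2 ratio of the LIM over the HF channel (vertical axis) of the 36 RAB genes against the mean log2 intensity of the probe (horizontal axis), after loess (filled) and after median centring of each array (open), with a line joining both values of a gene. The open points climb with intensity and the filled points stay near 0, apart from RAB12, RAB21, RAB2A and RAB5C, which lie above 0.25.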

How the data were processed

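Per the labels, muscle RNA of 1 LIM bull (Cy5) and 1 HF bull (Cy3) was hybridised to each of 4 Agilent two-colour bovine arrays. The intensity values deposited by the authors are spot medians and local background medians in each dye, not normalized, quantified per the file headers with Feature Extraction 10.7.3.1. The deposited log10 ratios are its processed Cy5 over Cy3 signals. The series value table holds the same ratios (largest difference 0), with no further centring.

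Background was corrected by normexp (offset 50), log2 ratios were normalized within arrays by loess, and spots marked non-uniform (5 to 10 on an array) were dropped. None was saturated. For the LIM and HF channel values, mean log2 intensities were also quantile normalized between arrays, which leaves the ratios unchanged. A probe was kept if 1 channel exceeded background clearly on 3 or more arrays (15856 of 21475 probes). Mean ratios were tested against 0 (two-sided) with limma 3.58.1 in R 4.3.3, a fit tested on simulated data. Benjamini-Hochberg adjustment ran over all kept probes. Probes were named through accessions in a RefSeq table (ARS-UCD2.0) for 8297 of 21475 probes, and no coordinates are given because the array design refers to another build. No sequences were used here.

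The members and lists were chosen with earlier results of these data known. Arrays are given in full for the 6 highest and 6 lowest members, the extremes of each group and pathway genes past the test (or the 2 of smallest p). RAB5A, SLC2A4 and the second probes of RAB3A, RAB8B and RAB33B were added after seeing values. The values of 1 pathway gene that this rule selects are not reported here. Alternatives covered background, offset, normalization, filter, spots, model, value source, probe choice and each array left out. All arrays shared 1 slide and scan.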

Additional observations from a re-analysis of the deposited data

Results flagged for a closer look

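Ratios of 45 genes and 12 medians over groups of genes or probes were checked for 1 array far from the other 3. The limit was met by 2 RAB genes, where chance gives about 1 in 20 of the values checked (2.85 of 57). For RAB35 the gap between array 4 (-0.30) and the nearest of the others (-0.08) was 0.905 of the whole range. For RAB5A the gap between array 1 (0.59) and the nearest of the others (0.02) was 0.839 of the range.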

How the results depend on the processing

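No RAB gene passed the test as lower under any of 19 alternatives. RAB genes past the test on the higher side numbered 15 after median centring, 1 (RAB21) by the methods' t-test at its own threshold and 1 (RAB21, limma adjusted p 0.033) in the unpaired fit of the channels, which has no replicate block; in the other 16 alternatives there were 0. The RAB median was 0.45 after median centring and 0.0078 to 0.045 with each array left out. After median centring RAB33B (0.49), RAB8B (0.41), RAB9A (0.58) and SLC2A4 (0.61) were called above 0, having been below 0 after loess. In all, 18 of the 36 RAB genes kept their sign in every alternative and 18 did not. RAB27A was -0.53 and RAB2B -0.37 with the scanner's processed signals. The methods' t-test after Benjamini-Hochberg lost SYTL4 (adjusted p 0.136) and TBC1D1 (0.172), and TBC1D1 was also lost without a filter on dim probes (0.058). Over all probes, 470 were higher and 398 lower. The higher count was 806 with processed signals, 3525 after median centring, 735 with an intensity trend and robust prior, 818 by the methods' t-test at its own threshold, 1 by that test after adjustment, 807 from the value table and 0 to 15 with an array left out. The lower count was 661 by the methods' t-test at its own threshold, 0 by that test after adjustment and 0 to 36 with an array left out. Median centring moved the share of higher probes among calls to 92.8%, against 54.1% after loess. Without array 3 the probe counts were 15 higher and 36 lower, and without array 1, 2 or 4 both were 0. Each of these fits has fewer samples, and the causes of the changes in the counts were not tested. Signal over background limits the dim genes, 15 of 36, whose ratios are shrunk.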
